A study of Mus musculus with 4 samples.

Results

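The genes followed were 10 members of the HSP90 machinery: the HSP90 chaperones Hsp90aa1, Hsp90ab1, Hsp90b1 and Trap1 and the co-chaperones Fkbp4, Fkbp5, Fkbp6, Ahsa1, Stip1 and Cdc37. They were chosen by gene symbol, and all 10 were found among the 50763 genes of the count table and passed the filter on low counts. Expression was measured by sequencing polyadenylated RNA from pachytene spermatocytes purified from mouse testis, with 2 libraries from mice with a knockdown of Hsf5 and 2 from wild-type (WT) mice. Hsf5 encodes a testis member of the heat shock factors, the family of transcription factors whose best known member, Hsf1, switches on HSP90 genes under heat. The sources used here do not give the strain, the age, how the knockdown was made or how many mice stand behind a library. The labels call the replicates biological without naming animals. Each p-value sets a group difference against the spread between these 4 libraries, estimated in part over all genes. Whether that is the spread between mice is not known.

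HSP90 is a dimeric chaperone that uses ATP to finish the folding of a selected set of clients, mainly kinases and steroid hormone receptors. Clients arrive from HSP70 through the adaptor STIP1 (also called HOP) or, for kinases, through CDC37. AHSA1 speeds up the ATPase, and the immunophilins FKBP4 (FKBP52) and FKBP5 (FKBP51) bind the end of the HSP90 tail and tune receptor activity in opposite ways. The cell has separate HSP90 proteins in the cytosol (alpha from Hsp90aa1, beta from Hsp90ab1), in the endoplasmic reticulum (GRP94, from Hsp90b1) and in mitochondria (from Trap1). In the mouse testis Hsp90aa1 is needed for spermatocytes to complete meiosis, and Fkbp6, an immunophilin of the germ line, is needed for male fertility and takes part in the piRNA pathway.

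The libraries held 42479164 and 33947608 counts for the knockdown and 39331933 and 33287428 for WT. Levels are CPM, the count of a gene relative to the library's total, scaled with TMM factors, which align the bulk of the genes between libraries. Hsf5 itself stood at 287 and 238 CPM in the knockdown libraries, against 586 and 449 CPM in WT, a log2 fold change of -0.98 (SE 0.31; edgeR quasi-likelihood test, adjusted p = 0.0217), so neither knockdown library was near 0. The call was lost when only library totals were used for scaling (-0.55), and also without WT replicate 1 (-0.79) or WT replicate 2 (-1.135). Markers of other cells differed between the groups. All 8 Sertoli cell markers were higher in the knockdown, with summed levels of 3025 and 3673 CPM against 133 and 354.8 CPM in WT. All 5 Leydig cell markers were also higher (1192 and 2398 CPM in the knockdown libraries, against 104 and 694 CPM in WT), as were all 5 macrophage markers (102 and 35.1 CPM, 7.27 and 7.40 CPM in WT) and 3 of 5 peritubular and endothelial markers (95.6 and 55.1 CPM, 11.7 and 20.4 CPM in WT). Markers of spermatogonia rose in 6 of 8 cases (640 and 590.3 CPM, 49.9 and 65.7 CPM in WT) and those of leptotene and zygotene, the stages before pachytene, in 6 of 7 (600.3 and 405 CPM, 219 and 155 CPM in WT). All 8 spermatid markers fell (19.9 and 11.3 CPM, 3272 and 1576 CPM in WT), and Prm2 had no count in the knockdown. Of the 10 pachytene markers 8 fell and 1 rose (2557 and 1884 CPM, 6697 and 7210 CPM in WT). Sycp3 was present in all libraries, at 311 and 157 CPM in the knockdown, against 151 and 105 CPM in WT. Ccna1, Pgk2, Ovol2 and Pou5f2 were at most 3.44 CPM in either knockdown library. The part of these differences in the lower Hsf5 level and in the results on the chaperone genes was not tested. In such bulk RNA, fewer cells of a type and less RNA per cell cannot be told apart.

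In the knockdown, 4 of the 10 genes were higher than in WT, 1 was lower and 5 did not pass the test. Hsp90ab1, Stip1, Fkbp5 and Fkbp6 rose, by 2.64-fold to 5.46-fold, and Fkbp4 fell 2.72-fold. Hsp90aa1, Hsp90b1, Trap1, Ahsa1 and Cdc37 did not pass. Among all 23594 genes tested 27.4% were higher and 33.5% lower, together 60.9%, so 5 of 10 past the threshold is no more than the background. The directions differ with level: among the 3358 genes at least as abundant as the lowest of the 10, 17.1% were higher and 41.8% lower, with a median log2 fold change of -0.45. The median log2 fold change was 0.34 over the 10 genes and -0.12 over all genes. Leaving out 1 library moved the median of the 10 to -0.002 (without knockdown replicate 1, -0.23 over all genes) or 0.67 (without knockdown replicate 2, -0.27 over all genes). With library totals only these medians were 0.76 and 0.31. Another scaling, called the axis-gene scaling here, set the libraries level on 20 meiotic genes, mostly of the synaptonemal complex and cohesin. The 20 also held Terb1, Terb2, Majin, Sun1, Kash5 and Trip13, which belong to neither group. With TMM 7 of those 20 rose and 2 fell (median 0.43). Under this axis-gene scaling the medians were -0.12 over the 10 genes and -0.51 over all genes. It called 3719 genes higher and 8159 lower, against 6467 and 7902 with TMM. The 5 calls kept their direction and stayed past the threshold in all 12 alternatives, which included leaving out each library.

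**Figure D1:**
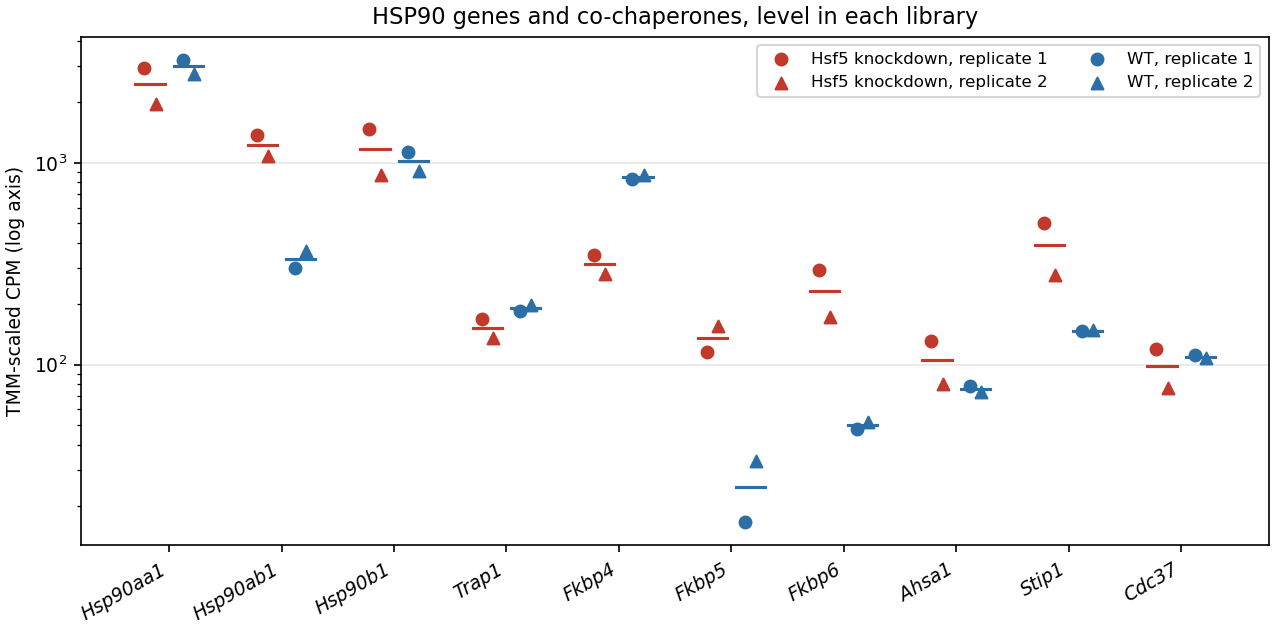
Level of each of the 10 genes in each library, in TMM-scaled CPM on a log axis; points are libraries and short lines are group means, with Hsf5 knockdown left of WT. Hsp90ab1, Stip1, Fkbp5 and Fkbp6 lie higher in both knockdown libraries than in both WT libraries, Fkbp4 lies lower, and Hsp90aa1 is at 1957 CPM or more in all 4.

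The cytosolic HSP90 pair was divided. Hsp90aa1, the stress-inducible alpha form, had 2938 and 1957 CPM in the knockdown libraries and 3235 and 2765 CPM in WT. The groups overlapped, with knockdown replicate 1 inside the WT range and knockdown replicate 2 below it. The log2 fold change was -0.29 (SE 0.38; edgeR, adjusted p = 0.529), with an approximate 95% interval from -1.04 to 0.46, and the value was 0.13 with library totals only. Under the axis-gene scaling it passed as lower (-0.73).

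Hsp90ab1, the constitutive beta form, had 1372 and 1077 CPM in the knockdown libraries and 302 and 365 CPM in WT. Both knockdown libraries were above both WT libraries, and the lowest knockdown value was well beyond the highest WT value. The log2 fold change was 1.88 (SE 0.34; edgeR, adjusted p = 0.00127), and it ran from 1.43 to 2.31 over the alternatives. Hsp90aa1 and Hsp90ab1 are close paralogs, and the sources used here do not say how reads that match both were counted, so the split between them is less certain than their sum.

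The balance of these genes can be read within a library, where no scaling between libraries enters. Per kilobase of the longest annotated coding transcript, Hsp90aa1 made up 62.2% and 58.2% of the Hsp90aa1 plus Hsp90ab1 signal in the knockdown libraries, against 89.2% and 85.3% in WT. The means were 60.2% ± 2.78 in the knockdown and 87.2% ± 2.73 in WT (SD, n = 2 each). The ratio of Hsp90aa1 to Hsp90ab1 counts was 2.14 and 1.82 in the knockdown libraries and 10.7 and 7.57 in WT. The difference in log2 ratio was -2.19, with groups that did not overlap (exact permutation test, two-sided p = 0.333, the smallest that 2 against 2 libraries can give). Summed per kilobase, the pair reached 1440 and 1024 CPM per kb in the knockdown and 1106 and 987.5 CPM per kb in WT, and here the ranges overlapped. This sum, unlike the shares, depends on the scaling between libraries and was not repeated under the alternatives.

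Hsp90b1, the HSP90 of the endoplasmic reticulum, had 1466 and 866 CPM in the knockdown libraries and 1129 and 905 CPM in WT. The 2 knockdown values lay on either side of the WT pair. Its log2 fold change was 0.20 (SE 0.37; edgeR, adjusted p = 0.668), with a value of -0.25 under the axis-gene scaling and -0.16 without knockdown replicate 1. A pseudogene on the opposite strand overlaps 10.3% of its annotated exon bases, and the 192 counts of that pseudogene over all libraries equal 0.114% of the Hsp90b1 counts. Trap1, the mitochondrial HSP90, had 168 and 135 CPM in the knockdown libraries and 183 and 196 CPM in WT. Both knockdown values were below both WT values, yet the log2 fold change of -0.33 (SE 0.29; edgeR, adjusted p = 0.344) did not pass and was 0.10 with library totals only. Exons of Dnase1 on the opposite strand overlap 2.1% of its exon bases, and the 593 counts of Dnase1 equal 2.35% of the Trap1 counts. For both pairs, any reads over shared bases that were assigned to neither gene would not show in these counts. Groups without overlap were common: 7 of the 10 genes had none, against 82.7% of all genes tested.

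**Figure D2:**
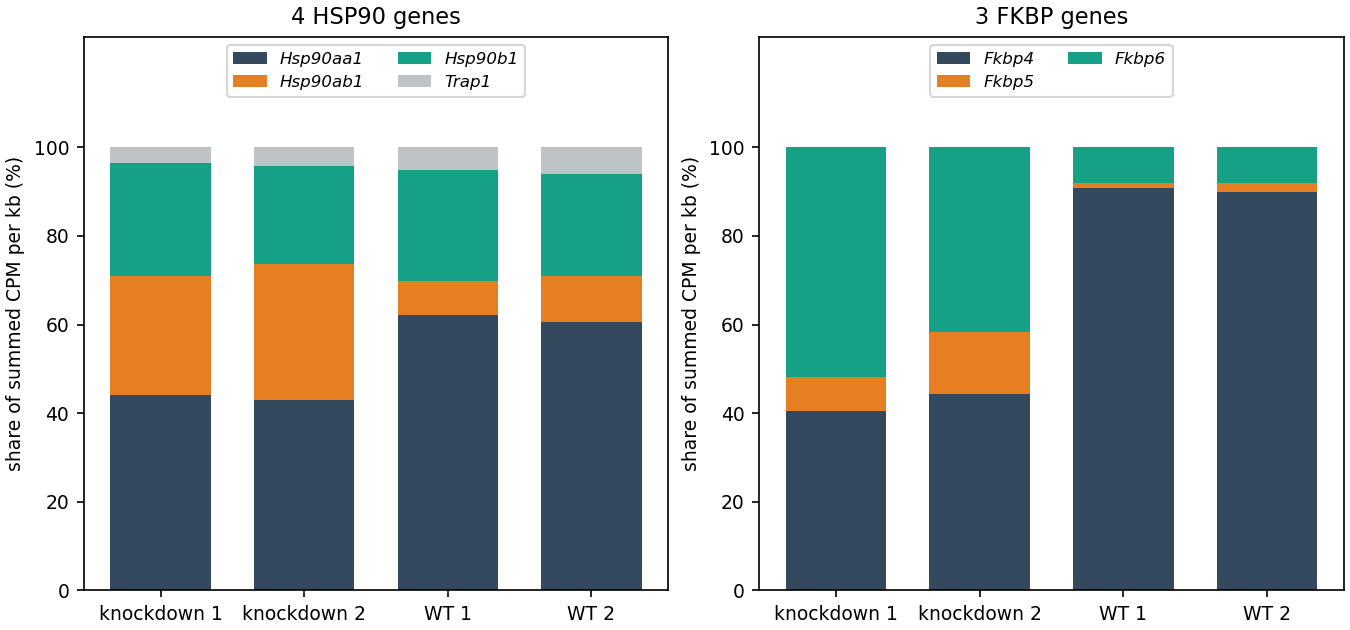
Share of each gene in the summed CPM per kb of the 4 HSP90 genes (left) and the 3 FKBP genes (right), stacked to 100% for each library, with Hsf5 knockdown libraries left of WT. Hsp90ab1 takes 26.8% and 30.8% of the HSP90 signal in the knockdown libraries and 7.55% and 10.4% in WT, and Fkbp4 takes 40.4% and 44.2% of the FKBP signal in the knockdown libraries and 90.9% and 89.9% in WT.

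The 3 FKBP co-chaperones moved in both directions. Fkbp4, the partner that favours steroid receptor activity, had 349 and 280 CPM in the knockdown libraries and 834 and 874 CPM in WT. Both knockdown libraries were below both WT libraries, and the gap between groups was wider than the spread within either. This gave a log2 fold change of -1.44 (SE 0.32; edgeR, adjusted p = 0.0035), from -1.87 to -1.01 over the alternatives.

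Fkbp5, which dampens the glucocorticoid receptor and is itself a target of that receptor, had 116 and 155 CPM in the knockdown libraries and 16.5 and 33.1 CPM in WT. Its higher WT value, in replicate 2, was below both knockdown values. Fkbp5 had a log2 fold change of 2.45 (SE 0.39; edgeR, adjusted p = 0.000706), the largest of the 10 genes, and of 2.01 to 3.06 over the alternatives. Fkbp5 was the only one of the 10 with a higher level in replicate 2 than in replicate 1 in both groups. The summed Leydig and Sertoli marker levels given above had that order too, as had the summed glucocorticoid receptor targets and HSP90 clients listed below. The summed macrophage and the summed peritubular and endothelial markers had the other order in the knockdown. The part of any of these in the result was not tested.

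Fkbp6, the germ line member, had 293 and 172 CPM in the knockdown libraries and 48.1 and 51.7 CPM in WT. The knockdown libraries were above WT but far from each other, with replicate 1 at 1.70 times replicate 2. Its log2 fold change was 2.22 (SE 0.34; edgeR, adjusted p = 0.000586), the smallest p of the 10. In the knockdown, the summed leptotene and zygotene markers were likewise higher in replicate 1 than in replicate 2, although Prdm9 among them was not. The summed pachytene, spermatogonial, spermatid, macrophage and peritubular and endothelial markers had that order in the knockdown too. In WT the leptotene and zygotene sum was higher in replicate 1, whereas Fkbp6 was higher in replicate 2. The part of these markers in the result was not tested.

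Within a library, Fkbp4 supplied 40.4% and 44.2% of the FKBP signal per kilobase in the knockdown, against 90.9% and 89.9% in WT. Fkbp6 supplied 51.9% and 41.7% in the knockdown and 8.03% and 8.15% in WT. Fkbp5 supplied 7.71% and 14.1% in the knockdown and 1.04% and 1.958% in WT. The 3 genes together reached 390 and 285 CPM per kb in the knockdown and 414 and 438.5 CPM per kb in WT, without overlap. This sum, unlike the shares, depends on the scaling between libraries and was not repeated under the alternatives. Of all genes tested, 82.7% had groups without overlap.

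The cofactors that load clients or drive the ATPase gave 1 call. Stip1, the bridge between HSP70 and HSP90, had 500 and 278 CPM in the knockdown libraries and 147 and 148 CPM in WT. The WT libraries were nearly equal and both knockdown libraries were above them, replicate 1 at 1.80 times replicate 2. Stip1 had a log2 fold change of 1.40 (SE 0.35; edgeR, adjusted p = 0.00682), and of 0.92 to 1.82 over the alternatives. Relative to the summed cytosolic pair, Stip1 stood at 16.5% and 12.9% in the knockdown libraries and at 6.30% and 7.11% in WT, per kilobase.

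Ahsa1, the ATPase activator, had 131.5 and 79.9 CPM in the knockdown libraries and 78.5 and 73.0 CPM in WT. Only knockdown replicate 1 stood clear of WT. Its log2 fold change of 0.48 (SE 0.32; edgeR, adjusted p = 0.221) did not pass, but it passed as higher with library totals only (0.90) and without knockdown replicate 2 (0.80). Cdc37, the kinase adaptor, had 120 and 76.6 CPM in the knockdown libraries and 112 and 107 CPM in WT. Its knockdown values lay on either side of the WT pair, and its log2 fold change was -0.16 (SE 0.31; edgeR, adjusted p = 0.685), but 0.27 with library totals only and 0.14 without knockdown replicate 2. For 9 of the 10 genes, Fkbp5 excepted, knockdown replicate 1 was higher than knockdown replicate 2, at 1.25 to 1.80 times. The share of all genes with that order was not counted, so the order is not shown to be particular to these genes. Of the summed marker levels above, only those of Sertoli and Leydig cells had the other order in the knockdown.

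**Figure D3:**
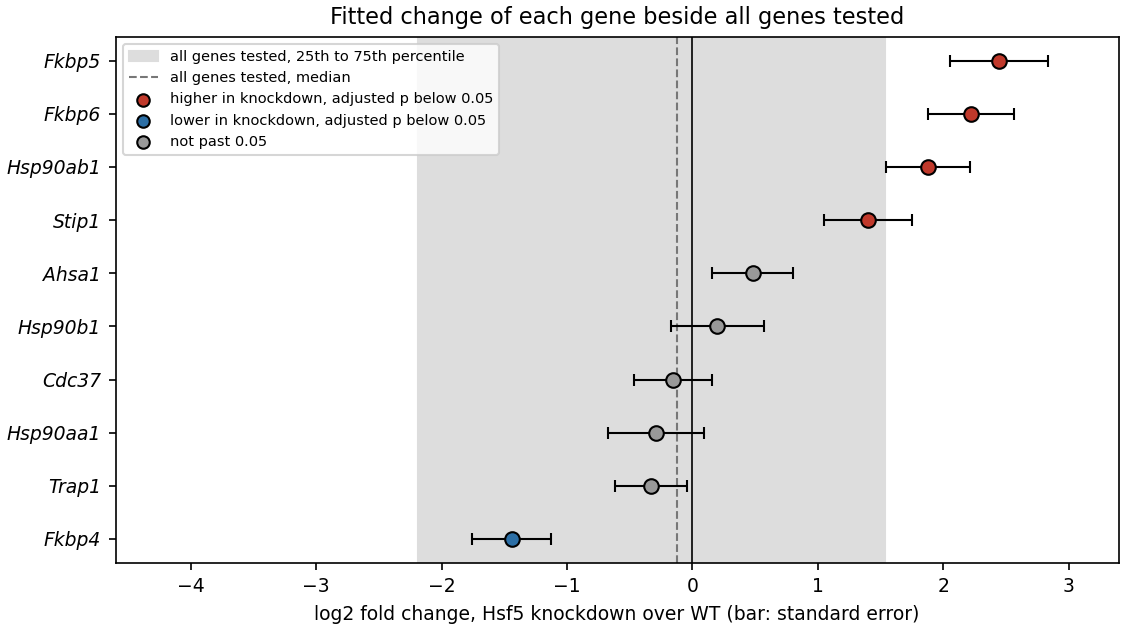
Fitted log2 fold change of each gene, Hsf5 knockdown over WT, with its standard error; the grey band spans the 25th to 75th percentile of all genes tested (-2.19 to 1.53) and the dashed line their median. Fkbp5, Fkbp6 and Hsp90ab1 lie above the band, and the other genes lie inside it.

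Levels can be compared between genes only per kilobase. In the knockdown the order of mean levels was Hsp90aa1 (746 CPM per kb), Hsp90ab1 (486), Hsp90b1 (413), Stip1 (185), Fkbp6 (161), Fkbp4 (142), Ahsa1 (76.8), Trap1 (65.2), Fkbp5 (35.1) and Cdc37 (12.5). The ranges of Hsp90ab1 and Hsp90b1 overlapped, as did those of Stip1, Fkbp6 and Fkbp4 and those of Ahsa1 and Trap1. In WT it was Hsp90aa1 (914 CPM per kb), Fkbp4 (385), Hsp90b1 (360), Hsp90ab1 (132), Trap1 (81.8), Stip1 (69.9), Ahsa1 (55.0), Fkbp6 (34.5), Cdc37 (13.9) and Fkbp5 (6.44), and there the ranges of Fkbp4 and Hsp90b1 overlapped and no others did. The order depends on the length used for Ahsa1: per kilobase of all annotated exons it had 24.1 CPM per kb in the knockdown, below Trap1 (58.8), and 17.3 CPM per kb in WT, below Fkbp6 (28.5). Cdc37 was divided by an annotated transcript of 7.85 kb, longer than those of the other 9 genes. Its level per kilobase depends on that length, since a shorter transcript would give a higher value. Before division by length Cdc37 still had the lowest mean in the knockdown (98.2 CPM, with Ahsa1 next at 105.7 CPM). In WT its mean of 109.4 CPM was above those of Ahsa1, Fkbp6 and Fkbp5. Among 15591 tested genes with a length, Hsp90aa1 ranked 12 in the knockdown and 31 in WT, Hsp90ab1 ranked 34 in the knockdown and 647 in WT, and Fkbp4 ranked 299 in the knockdown and 132 in WT.

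Promoter windows from RefSeq (build GRCm38.p6, 250 bases before to 50 after the annotated start, in the direction of transcription) were found for 8 of the 10 genes, Hsp90aa1 and Hsp90ab1 being the others, in 9 windows. The counts rest on mm39, and no coordinate was carried between the builds. The windows were searched on both strands for the pair of inverted heat shock units GAANNTTC or TTCNNGAA, which heat shock factors recognise when repeated, for CCAAT, and for the endoplasmic reticulum stress element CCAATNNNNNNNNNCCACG, which contains CCAAT. The E-box CACGTG was added after the sequences had been read. Of 32851 windows of that length, 15.1% held the heat shock pair, 37.4% held CCAAT, 7.15% the E-box and 0.119% the stress element. The triplets GAANNTTCNNGAA or TTCNNGAANNTTC, in 0.603% of windows, were in none of the 9.

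The heat shock pair was found once each in the windows of Fkbp4 and Cdc37. The window of Fkbp4, the gene that fell, is shown with those of Fkbp5, Fkbp6 and Stip1, which rose, 5′ to 3′ in transcript direction, with the heat shock pair (GAAAGTTC), CCAAT in either direction and the E-box in capitals. They lie at chr6:128438607-128438906 (Fkbp4), chr17:28486100-28486399 (Fkbp5), chr5:135349995-135350294 (Fkbp6, the upstream of its 2 starts) and chr19:7039977-7040276 (Stip1), all on the minus strand.
Fkbp4: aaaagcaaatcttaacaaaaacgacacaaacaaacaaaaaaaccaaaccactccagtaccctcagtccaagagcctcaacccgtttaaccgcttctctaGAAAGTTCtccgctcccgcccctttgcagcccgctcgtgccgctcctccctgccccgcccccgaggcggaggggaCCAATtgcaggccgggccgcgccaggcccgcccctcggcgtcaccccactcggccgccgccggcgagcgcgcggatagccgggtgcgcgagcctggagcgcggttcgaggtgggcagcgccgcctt
Fkbp5: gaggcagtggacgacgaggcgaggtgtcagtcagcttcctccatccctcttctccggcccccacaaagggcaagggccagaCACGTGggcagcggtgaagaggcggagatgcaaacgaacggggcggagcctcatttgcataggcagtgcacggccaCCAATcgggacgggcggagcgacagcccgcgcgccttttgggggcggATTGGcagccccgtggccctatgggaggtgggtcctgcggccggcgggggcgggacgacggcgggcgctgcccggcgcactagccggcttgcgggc
Fkbp6: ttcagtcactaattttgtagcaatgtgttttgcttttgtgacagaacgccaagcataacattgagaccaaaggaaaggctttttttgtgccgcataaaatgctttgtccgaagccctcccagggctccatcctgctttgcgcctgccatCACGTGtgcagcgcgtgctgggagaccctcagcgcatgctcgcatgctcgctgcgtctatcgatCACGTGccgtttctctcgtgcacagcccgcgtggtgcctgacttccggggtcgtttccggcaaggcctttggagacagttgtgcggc
Stip1: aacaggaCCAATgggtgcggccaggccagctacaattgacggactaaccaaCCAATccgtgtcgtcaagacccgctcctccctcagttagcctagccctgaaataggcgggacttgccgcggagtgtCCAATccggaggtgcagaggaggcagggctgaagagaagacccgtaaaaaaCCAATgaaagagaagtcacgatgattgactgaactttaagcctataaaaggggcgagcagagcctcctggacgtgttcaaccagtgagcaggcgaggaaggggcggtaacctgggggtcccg

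Fkbp4 had its heat shock pair at -151 to -144 from the start site and CCAAT at -76 to -72. Stip1 had CCAAT 4 times and Fkbp5 2 times, besides 1 E-box at -169, and Fkbp6 had the E-box at -101 and -37 and neither of the others. The end of the Stip1 window, unlike those of the other windows shown, was not found within a GENCODE transcript. Its start site is therefore less certain. The window of Hsp90b1, at chr10:86705395-86705694 on the minus strand, is shown because it held the endoplasmic reticulum stress element 2 times, at -212 to -194 and, on the other strand, at -107 to -89. It held CCAAT 6 times, 2 of them within these elements. The capitals mark the stress elements and CCAAT in either direction.
Hsp90b1: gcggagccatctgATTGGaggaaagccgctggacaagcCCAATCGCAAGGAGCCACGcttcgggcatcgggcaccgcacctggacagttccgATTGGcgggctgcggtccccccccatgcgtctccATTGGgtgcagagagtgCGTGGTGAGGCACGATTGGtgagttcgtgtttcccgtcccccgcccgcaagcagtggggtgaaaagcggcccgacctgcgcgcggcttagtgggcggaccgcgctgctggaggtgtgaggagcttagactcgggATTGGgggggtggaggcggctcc

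The wider network was described with 9 lists of genes that exclude the 10, whose shares of calls stand beside the same background of 27.4% higher and 33.5% lower. That background was not matched to the levels of the listed genes. Among the more abundant genes described above it was 17.1% higher and 41.8% lower. Of 25 other HSP90 co-chaperones 4 were higher in the knockdown, 4 lower and 17 not past the test, with a median log2 fold change of -0.03. Chordc1 (log2 fold change 1.61, SE 0.35), a heat-inducible HSP90 partner, and Nudc (1.29, SE 0.35), a nuclear distribution protein that works with HSP90, passed as higher. The count of higher genes was 1 without WT replicate 1, 2 without WT replicate 2, 2 without knockdown replicate 2 and 1 under the axis-gene scaling. Nudc missed the threshold without WT replicate 1 (1.30), without WT replicate 2 (1.28) and under the axis-gene scaling (0.81). Fkbpl, an immunophilin-like protein, fell to 9.95 and 6.35 CPM in the knockdown libraries, against 118 and 89.1 CPM in WT. Ttc4 also fell, to 75.7 and 67.2 CPM in the knockdown, against 330 and 253 CPM in WT. Ptges3 (p23, which stabilises the closed HSP90 dimer) had 359 and 191 CPM in the knockdown, against 321 and 201 CPM in WT, and did not pass. It was chosen after its values were seen.

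In the R2TP and TTT complexes and dynein assembly factors, which use HSP90 to build large complexes, 6 of 14 fell and 1 rose (median -0.50). Without WT replicate 1 the count that fell was 3, and without knockdown replicate 2 the count that rose was 2. Spag1 fell to 25.9 and 24.0 CPM in the knockdown libraries, against 163 and 138 CPM in WT, and Pih1d2 had a log2 fold change of -2.39 (SE 0.36). Telo2, of the TTT complex, rose by 2.19 (SE 0.38) on the log2 scale. Of the other FKBP immunophilins 6 of 8 tested rose and none passed as lower (median 1.87), although 1 did in 6 of the 12 alternatives. Those that rose included the endoplasmic reticulum members Fkbp9, at 59.8 and 74.4 CPM in the knockdown, against 3.52 and 9.70 CPM in WT, and Fkbp14 (log2 fold change 2.46, SE 0.40), whereas Fkbp1b and Fkbp2 were too low to test.

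Among 14 heat shock response genes, 7 rose and 3 fell (median 1.79). Hspb1, a small heat shock protein, rose to 92.55 and 82.8 CPM in the knockdown libraries, against 4.05 and 4.03 CPM in WT, and Hspd1, the mitochondrial chaperonin, had a log2 fold change of 3.38 (SE 0.36). The HSP40 gene Dnajb1 (-1.46, SE 0.31) and Hspa4l (-1.28, SE 0.32), a testis-enriched HSP110, fell. The 2 inducible HSP70 genes in that count, Hspa1a and Hspa1b, are near-identical and their counts are less certain.

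ER chaperones of the unfolded protein response had 5 of 14 higher and 1 lower (median 0.29), and 2 higher without WT replicate 2. Pdia4, a disulfide isomerase, had 170 and 129 CPM in the knockdown libraries and 23.6 and 28.9 CPM in WT, Cnpy2 rose (log2 fold change 2.74, SE 0.47) and Sdf2l1 fell (-1.43, SE 0.36). Mitochondrial chaperones and proteases, beside which Trap1 stands, had 4 of 12 higher and 1 lower (median 0.62). The protease gene Lonp1 rose (2.05, SE 0.31), as did Hspd1, which is also among the heat shock response genes, while Pink1, a kinase of mitochondrial quality control, passed as lower (-1.13, SE 0.32). Pink1, the one lower gene of that list, missed the threshold with library totals only (-0.705) and when WT replicate 2 was left out (-1.03).

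Of the glucocorticoid receptor targets, listed because Fkbp5 is one, 6 of 8 rose and none fell (median 2.97). Tsc22d3 had 79.4 and 56.5 CPM in the knockdown libraries and 4.53 and 4.41 CPM in WT, and Sgk1 had 46.55 and 38.1 CPM in the knockdown libraries and 0.864 and 2.54 CPM in WT. Genes of HSP90 clients passed as higher in 15 of 21 cases and as lower in none (median 1.52). The count of higher genes was 8 without knockdown replicate 2, 10 without WT replicate 1 and 6 under the axis-gene scaling. Those that rose included the kinase genes Akt1 (1.91, SE 0.31) and Met (3.90, SE 0.62). The receptor genes Nr3c1 and Esr1 were among those that rose, were named after their values were seen, and are also expressed by somatic cells of the testis, whose markers rose with them. The part of the markers in this was not tested.

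The piRNA and nuage genes, the pathway of Fkbp6, were divided, with 3 of 12 higher and 5 lower (median -0.57). Mov10l1, an RNA helicase of the pathway, rose (log2 fold change 1.58, SE 0.32), and Piwil4, low throughout, rose to 2.03 and 3.90 CPM in the knockdown libraries, against 0.298 and 0.313 CPM in WT. Henmt1, the methyltransferase of piRNA ends, had 12.9 and 14.5 CPM in the knockdown libraries and 94.9 and 99.3 CPM in WT, and Pld6 fell (-1.67, SE 0.32).

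**Figure D4:**
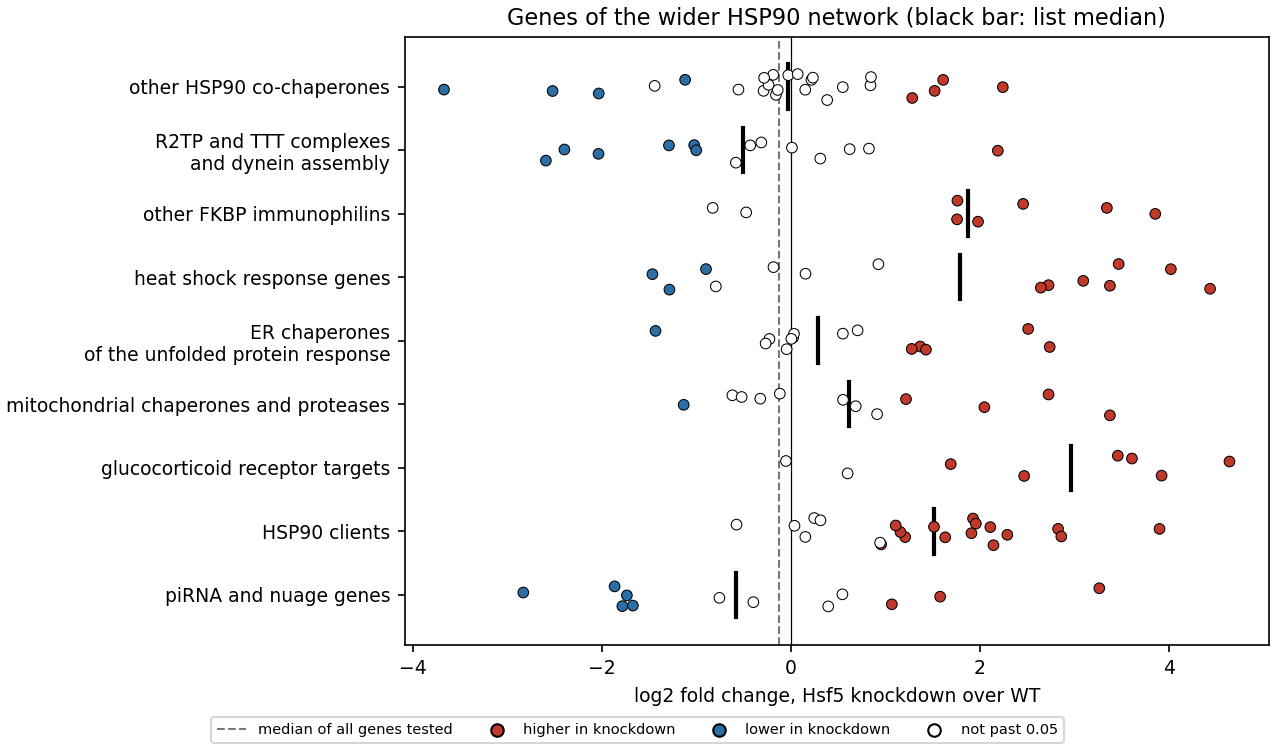
Log2 fold change, Hsf5 knockdown over WT, of each tested gene in 9 lists around HSP90; red is higher and blue lower at adjusted p below 0.05, open circles did not pass, black bars are list medians and the dashed line is the median of all genes (-0.12). The co-chaperone list centres near that median, with its called genes on both sides, and the clients and glucocorticoid receptor targets have no gene called lower.

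Genes with the profile most like that of a called member were sought by the distance between mean-centred log2(CPM + 0.5) values over the 4 libraries, among 12772 genes with a mean of at least 5 CPM. Nearest to Fkbp4, the gene that fell, were Tmprss12 (distance 0.0369), Thap4 (0.0585) and Atl1 (0.0712). Tmprss12 had 22.45 and 17.3 CPM in the knockdown libraries and 52.9 and 56.0 CPM in WT. Nearest to Fkbp6, the rise with the smallest p, were Stard3nl (distance 0.0204), Pim1 (0.0648) and Phax (0.0723), and Stard3nl had 34.2 and 20.1 CPM in the knockdown libraries and 5.31 and 5.63 CPM in WT. With 4 libraries such likeness is a description.

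**Figure D5:**
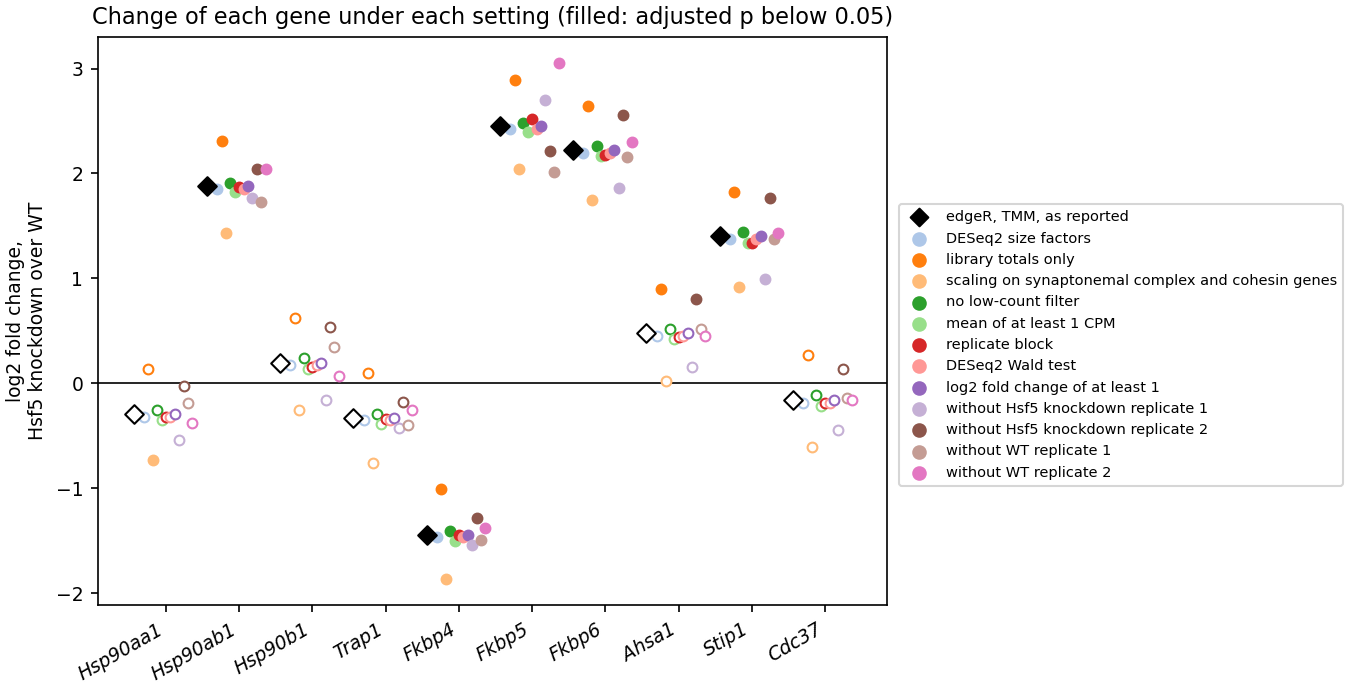
Log2 fold change of each gene, Hsf5 knockdown over WT, as reported (diamonds) and under 12 alternatives (circles); filled symbols passed adjusted p below 0.05 and, for 1 alternative, a minimum log2 fold change of 1. Hsp90ab1, Fkbp5, Fkbp6 and Stip1 stay above 0 and Fkbp4 below 0 with every symbol filled, while Hsp90aa1, Hsp90b1, Trap1 and Cdc37 have symbols on both sides of 0.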

How the data were processed

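The authors deposited raw read counts per gene, 1 column per library. Per the submitters' processing notes, reads were trimmed with Trim Galore 0.6.10, aligned with HISAT2 2.2.1 to mm39 and counted with featureCounts 1.5.3, and DESeq2 1.46.0 is also named. The sources used here do not state the gene annotation, the strand setting or the handling of multi-mapping reads. Here edgeR 4.0.16 (R 4.3.3) filtered genes by group (23594 of 36809 with a count kept), scaled with TMM and compared knockdown with WT by its quasi-likelihood F test, with Benjamini-Hochberg adjustment over all genes tested and a threshold of 0.05. SEs are the log2 fold change over the square root of F, and 95% intervals are approximate. The fit was run on simulated data in which few genes changed, equally up and down. In these data 60.9% of genes passed, so that run is no check of the scaling used here. Lengths and overlaps come from GENCODE M21 (GRCm38). For each list, the 2 called genes with the smallest p in each direction are named, with other genes marked as chosen later, and the 3 genes most like the fallen and the risen member with the smallest p. The 10 genes and the lists were chosen with earlier results of these data known. The 12 alternatives were 3 other scalings (DESeq2 size factors, library totals, axis genes), 2 filters, a minimum fold, the DESeq2 1.42.0 Wald test, a replicate block and leaving out each library. Replicates differed by more than sampling noise, with a chi-square over its degrees of freedom of 123 in the knockdown and 57 in WT.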

Additional observations from a re-analysis of the deposited data

How the results depend on the processing

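Over 12 alternatives the 10 genes kept their direction and their side of the threshold in 111 of 120 cases. For 1 of the 12, the minimum fold, the reported fit was reused, so no sign could change and no gene could be added there. In 3 cases a gene came past the threshold, Hsp90aa1 under the axis-gene scaling and Ahsa1 with library totals only and without knockdown replicate 2. The 6 changes of sign were all in genes that had not passed: with library totals only Hsp90aa1 was 0.132, Trap1 0.103 and Cdc37 0.268, with the axis-gene scaling Hsp90b1 was -0.254, without knockdown replicate 1 Hsp90b1 was -0.156, and without knockdown replicate 2 Cdc37 was 0.136. Leaving out 1 library gave -0.541 to -0.024 for Hsp90aa1, -0.156 to 0.534 for Hsp90b1, -0.422 to -0.177 for Trap1 and -0.441 to 0.136 for Cdc37. The axis-gene scaling gave 2 of the 10 genes lower instead of 1 (Hsp90aa1 added), 3719 genes higher over all genes instead of 6467, and 32 higher in the wider lists instead of 49. Hsf5 was at -0.547 with library totals only (adjusted p = 0.115), missed a minimum log2 fold change of 1 at -0.98, and ranged from -1.135 to -0.792 without 1 library. With 1 library of a group left out, the lone library was assumed to vary like those of the other group. Without division by length the Hsp90aa1 share was 66.3% in the knockdown and 89.9% in WT, against 60.2% and 87.2% per kilobase. The cause of these shifts was not tested. Replicate numbers are shared between groups, but the labels do not say that they pair the libraries, and with 2 per group this cannot be decided (correlation of deviations 0.32). With the replicate block 4 of the 10 genes were higher and 1 lower, as without it, and Hsf5 was at -0.974. In the wider lists the block gave 3 higher of the R2TP group instead of 1, 7 higher and 2 lower mitochondrial genes instead of 4 and 1, and 1 lower client instead of 0. Library totals gave 7 higher co-chaperones instead of 4, 3 higher of the R2TP group and 7 higher mitochondrial genes, and the axis-gene scaling 3 lower mitochondrial genes. Having 2 libraries per group limits what small changes can be called.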
